A study of Drosophila melanogaster with 2 samples.

Results

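Distal intergenic regions are stretches of accessible chromatin that lay more than 3 kb from every annotated transcription start site (TSS) and touched no annotated gene of any biotype. Merging peaks across the replicates at an overlap of 1 bp or more gave 15842 regions, and 11705 of these held a peak of each replicate and are called consensus regions. Of the consensus regions, 662 (5.66%) met the position rule. The rule used position only, so the values of the regions were free of it, except that a peak in each replicate was required. Chromatin was profiled by ATAC-seq, in which the Tn5 transposase inserts adapters into open DNA, in mushroom body (MB) nuclei of naive Drosophila melanogaster. Both samples were 1 group with 2 replicates of the genotype w*;UAS-Unc84::2xGFP/+;R14H06-Gal4/+, so no groups could be compared and no p-value is given. Each replicate was a pool of heads from 50 to 60 flies, frozen 1 h after training would have begun. The study's methods give the flies as males. R14H06-Gal4 drives a GFP-tagged nuclear envelope protein mainly in Kenyon cells, the intrinsic neurons of the MB, with sparse labelling of other nuclei, and tagged nuclei were pulled from the homogenate with anti-GFP beads.

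Distal accessible DNA outside genes often holds enhancers, which are stretches of sequence that bind transcription factors and raise transcription from a promoter some distance away. It can also hold insulators, promoters of unannotated transcripts or sites bound by Polycomb-group proteins, and accessibility alone does not tell these apart. In the fly, many developmental transcription factor genes are known for long flanking stretches with many such elements. All values below are fold enrichment (the pileup of fragments or cut sites at the summit of a peak over the local background of the same library), or the pileup and background themselves. The regions were numbered R1 to R662 from the highest to the lowest mean fold enrichment percentile, where a percentile is the percent of consensus regions that are lower.

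The sequences at the summit of 6 regions show what the strongest elements and those with a full cAMP response element look like. R2, R3, R4 and R5 had the highest percentiles among regions printed here, and R164 and R221 also carried the full element TGACGTCA, the site of the CREB family. Each runs 5′ to 3′ on the plus strand of dm6 over 100 bp each side of the summit and the summit itself, taken from the RefSeq copy of the assembly. Capitals mark exact matches on either strand to any of the 19 motifs searched or to the 5 six-base words that differed most in share from the rest of distal intergenic sequence, which are described with their counts further on. R2 lay at chr2L:12854331-12854969, R3 at chr3L:5329058-5330388, R4 at chr2L:14244175-14244717, R5 at chr2L:6817233-6817884, R164 at chr3R:21460054-21460400 and R221 at chr3L:9190197-9191189.
R2: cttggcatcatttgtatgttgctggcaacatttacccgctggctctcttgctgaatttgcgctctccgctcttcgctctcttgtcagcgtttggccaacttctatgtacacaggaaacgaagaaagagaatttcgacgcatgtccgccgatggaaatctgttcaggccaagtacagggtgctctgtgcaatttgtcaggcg
R3: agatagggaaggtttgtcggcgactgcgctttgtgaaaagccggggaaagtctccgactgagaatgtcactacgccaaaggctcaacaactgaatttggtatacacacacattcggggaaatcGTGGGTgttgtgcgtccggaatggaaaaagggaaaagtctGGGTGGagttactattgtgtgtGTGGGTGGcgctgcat
R4: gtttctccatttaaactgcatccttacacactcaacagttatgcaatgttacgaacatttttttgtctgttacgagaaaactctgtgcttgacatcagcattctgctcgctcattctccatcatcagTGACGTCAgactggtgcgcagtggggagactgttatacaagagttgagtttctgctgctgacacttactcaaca
R5: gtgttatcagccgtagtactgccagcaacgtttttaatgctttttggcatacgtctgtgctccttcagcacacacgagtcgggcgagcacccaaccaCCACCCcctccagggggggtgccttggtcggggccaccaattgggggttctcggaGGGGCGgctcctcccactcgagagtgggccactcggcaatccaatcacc
R164: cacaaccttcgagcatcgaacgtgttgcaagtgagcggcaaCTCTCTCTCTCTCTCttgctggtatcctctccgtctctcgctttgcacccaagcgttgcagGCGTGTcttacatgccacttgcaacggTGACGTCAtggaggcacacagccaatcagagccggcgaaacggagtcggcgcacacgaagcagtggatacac
R221: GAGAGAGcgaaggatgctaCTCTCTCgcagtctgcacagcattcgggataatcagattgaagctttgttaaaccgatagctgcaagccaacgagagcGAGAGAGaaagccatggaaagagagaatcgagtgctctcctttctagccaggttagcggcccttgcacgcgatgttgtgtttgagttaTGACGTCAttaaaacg
R2 held no match in this window. In R3 there were 2 matches to ACCCAC and 2 to CCACCC, read on the minus strand, and the rightmost of each overlapped. R5 had CCACCC and, further right, CGCCCC. The CRE lay 27 bp to the right of the summit in R4, 29 bp in R164 and 85 bp in R221. R164 and R221 held the GAGA motif GAGAGAG, the site of the GAGA factor Trl, as well, 5 overlapping matches in R164 and 3 in R221.

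The labelled tissue was checked against TSS peaks of marker genes. All 14 MB markers looked up, including ey, dac, rut, dnc and Pka-C1, had a peak within 500 bp of a TSS in both replicates, against 55.9% of all protein-coding genes. This was so for 2 of 5 glial genes (Eaat1 and moody), for 1 of 3 fat body genes (FASN1) and for 0 of 5 photoreceptor, 0 of 3 muscle and 0 of 3 blood cell genes. Replicate 1 held 13868 peaks and replicate 2 held 14583. The lists gave no read totals, but the pileup at each summit could be solved from the deposited values. Its median was 219 over the peaks of replicate 1 and 216 over those of replicate 2.

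Distal intergenic regions were recovered in both replicates slightly less often than merged regions at large, and more often than the other classes away from a TSS. Of 940 merged regions that met the position rule, 662 held a peak of each replicate, or 70.4% (Wilson 95% interval 67.4 to 73.3). Over all merged regions the share was 73.9%. Distal regions within introns reached 61.4% (59.6 to 63.2), those that touched an exon 47.6% (44.4 to 50.8), and regions near but not over a TSS 57.0% (55.6 to 58.4). Regions over a TSS stood at 97.3% (96.9 to 97.7). The interval for distal intergenic regions lay above those of the other classes away from a TSS. Peaks of replicate 1 alone accounted for 122 of the rest and peaks of replicate 2 alone for 156. Intervals here and below cover counting error only.

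Most distal intergenic regions were of modest strength. Their median fold enrichment was 1.91 in replicate 1 and 1.88 in replicate 2. The mean of both was 1.89 ± 0.0195 (SD, n = 2), at the percentile 37.9 ± 0.680 (SD, n = 2) of all consensus regions. The lowest was 1.29 in replicate 1 and 1.32 in replicate 2, and the highest 6.14 and 6.04. Regions over a TSS had a median of 2.78 and 2.66, with quartiles of 2.12 and 3.59 in replicate 1. A fold enrichment of at least 3 in each replicate was reached by 83 distal intergenic regions (12.5%), against 23.8% of all consensus regions. The median region was 577 bp wide, with quartiles of 336.5 and 909.75 bp, while regions over a TSS were 1277.5 bp wide at the median.

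Distal intergenic regions stood above distal intronic regions in fold enrichment but hardly in pileup. The median fold enrichment of 1737 distal intronic regions was 1.76 in replicate 1 and 1.75 in replicate 2, at percentiles of 29.7 and 30.9 against 37.5 and 38.4 for distal intergenic regions. The median pileups were 174 against 169 in replicate 1 and 181 against 179 in replicate 2. Regions near but not over a TSS had a lower fold enrichment, 1.75 and 1.74, but higher pileups, 184 and 192. The median local background was lower for distal intergenic regions, at 82.9 and 88.6 against 88.3 and 94.8 for distal intronic ones. The background sat at its lowest value in the library for 58.9% and 56.3% of distal intergenic regions. This was so for 39.2% and 37.1% of distal intronic ones. Ranked by pileup, the medians of both classes were 1.33 percentile points apart, against 7.64 when ranked by fold enrichment. The difference between the classes was not tested, since 2 replicates of 1 group allow no test of it.

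**Figure D1:**
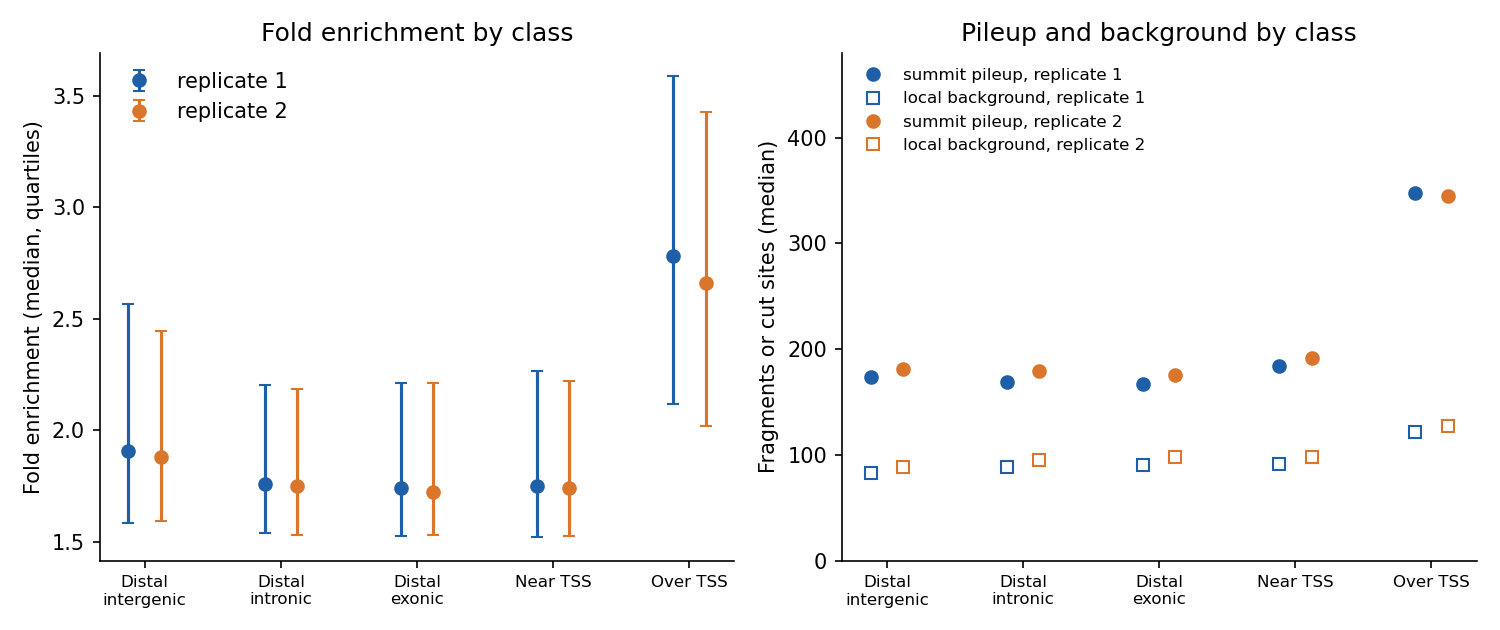
Fold enrichment (left, medians with quartiles) and median summit pileup and local background (right, in fragments or cut sites) for the 5 position classes of consensus regions, with each replicate as a point. Distal intergenic regions sit above the other classes away from a TSS on the left, at 1.91 and 1.88. On the right their pileups are close to those of distal intronic regions and below those of regions near a TSS.

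The replicates ranked the regions alike. Across the 662 regions, the Spearman correlation of fold enrichment between replicates was 0.917, a description over regions of the same 2 libraries. The summits of the strongest peak in each replicate were a median of 36 bp apart, and 60.9% were within 50 bp. The exact Poisson 95% intervals of the replicates overlapped in 656 regions, and the SD of the log2 ratio was 0.14. The counting error at the median pileup was 7.59% in replicate 1 and 7.43% in replicate 2.

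**Figure D2:**
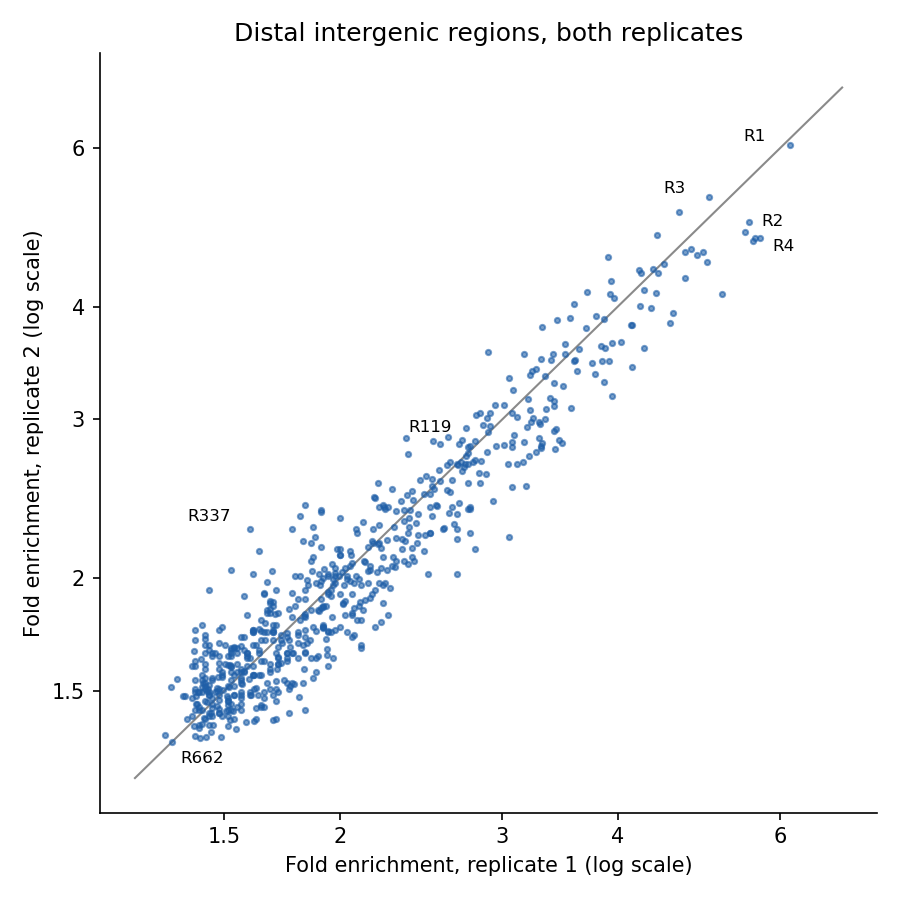
Fold enrichment of each of the 662 distal intergenic regions in replicate 1 (horizontal axis) and replicate 2 (vertical axis), both on log scales, with the line of equal values. The points follow the line from 1.29 to 6.14, and R337 stands farthest from it among the labelled regions.

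The 10 strongest regions each lay beside different genes. R1 (chr2R:13014583-13016270) lay 6672 bp past the 3′ end of Su(z)2, a Polycomb-group gene, and 17460 bp from its nearest TSS. Its fold enrichment was 6.14 in replicate 1 (95% interval 5.69 to 6.61) and 6.04 in replicate 2 (5.61 to 6.49). Both replicates placed it first. R2, between kek1, which encodes a transmembrane leucine-rich repeat protein, and the adenylyl cyclase gene ACXC, had 5.54 and 4.97. R3, between shep, which encodes an RNA-binding protein, and CG46456, had 5.03 and 5.29. R4, between the kinase gene Dyrk2 and wb, a laminin alpha chain gene, had 5.70 and 4.77. The intervals of the replicates overlapped narrowly in R4, since that of replicate 2 reached up to 5.24.

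R5 lay 4050 bp upstream of sens-2, which encodes a zinc finger transcription factor, with 5.50 and 4.84. R6 (chr2R:23621340-23621810) was between Eglp2, an aquaporin-family gene, and retn, an ARID transcription factor gene, with 5.64 and 4.77. R7 (chr2L:19479308-19480329) lay between tj, which encodes a large Maf factor, and CG10195, with 5.61 and 4.73. All 3 were higher in replicate 1, and their percentiles were at least 96.8 in both replicates. R8 (chr3L:17269261-17270984), between CG13723 and ND-24L, had 4.66 and 5.10. R9 (chr2R:8287847-8289395), 38095 bp from the POU-domain gene pdm3 and 8711 bp from mir-280, had 4.95 and 4.60. R10 (chr3R:7753155-7754116), 3076 bp upstream of pyd3, had 4.80 and 4.64. The share of regions beside transcription factor genes was not counted over all distal intergenic regions, so nothing is read from the flanking genes named here.

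Fold enrichment divides the pileup by the local background, so regions chosen for a high background rank higher by pileup than by fold enrichment by construction. The values below describe which regions these were. The local background was at least 150 in both replicates for 33 regions (4.98%), a limit chosen after the values were seen. This was so for 8.29% of distal intronic regions and 20.4% of all consensus regions. Of the 33 regions, 21 had a pileup percentile of at least 75 and 9 had a fold enrichment percentile of at least 75. Their median percentile was 87.1 by pileup and 54.9 by fold enrichment. The Spearman correlation of both measures over all 662 regions was 0.872 in replicate 1 and 0.878 in replicate 2.

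R662 (chr3R:10079235-10079469) was the last of all by mean fold enrichment percentile. It lay between Alp13, an alkaline phosphatase gene, and Fmr1, which encodes an RNA-binding protein of synapses, and its fold enrichment was 1.31 and 1.32. Its pileup was 615 and 599 over a background of 468 and 455, at pileup percentiles of 91.7 and 91.0. The region with the highest pileup was R21 (chr2R:22677620-22679097), between RYBP, a gene of a Polycomb-associated protein, and the F-box gene Ppa, at 1115 and 1149. R38 (chr2L:15490444-15492858), between Tim17b2 and the serine palmitoyltransferase gene lace, had 834 and 890, and R119, between NijA and CG43245, had 870 and 842. R315 (chr3R:13801980-13803833), between Dip-B and tal-2A, a gene of a small peptide, had pileups of 828 and 826 and yet a fold enrichment of 1.90 and 1.97. R21, R38 and R315 were named by their pileup after it was seen.

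**Figure D3:**
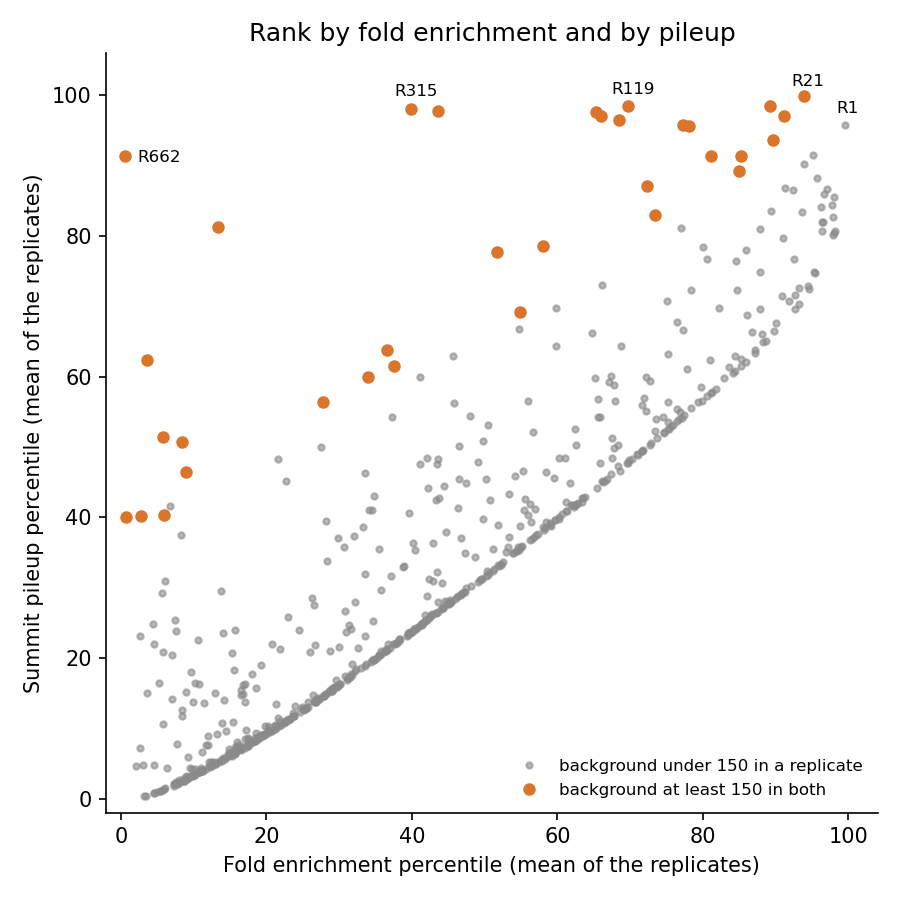
Percentile of fold enrichment (horizontal axis) and of summit pileup (vertical axis) among all consensus regions, each the mean of 2 replicates, for the 662 distal intergenic regions. The 33 regions with a background of at least 150 in both replicates (orange) lie high for their fold enrichment by construction, and R662 sits at the top left.

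The other regions of the lowest percentiles were R658, R659, R660 and R661. Their fold enrichment ran from 1.29 to 1.41 in replicate 1 and from 1.33 to 1.37 in replicate 2. R661 lay 4807 bp from 18w, a Toll-family receptor gene, and R658 lay 5360 bp from the odorant receptor gene Or98b. The regions that changed rank most between replicates were R337, R444, R397, R345 and R512, and all 5 were higher in replicate 2. R337 (chr3L:11429558-11430956), next to CG7560, had 1.60 (1.34 to 1.89) in replicate 1 and 2.27 (1.97 to 2.60) in replicate 2, and its intervals did not overlap. R345, 15328 bp from the zinc finger gene noc, had 1.63 and 2.14.

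The widest region was R30 (chr3L:10256581-10259518), 2938 bp between the odorant receptor gene Or67c and can, a gene of a testis-specific transcription factor, with 3.97 and 4.09. R190 (chr2L:16223316-16225944) was 2629 bp wide near the calcium channel gene Ca-Ma2d, with 2.50 and 2.24. R211 (chr2R:16471601-16474158) was 2558 bp wide near CheB53b, with 2.34 and 2.21. Width and fold enrichment rose together over the regions, with a Spearman correlation of 0.674 in replicate 1 and 0.689 in replicate 2. Both come from the same peak calls.

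Accessible regions became sparser away from promoters, while their median fold enrichment stayed close. Distal intergenic sequence made up 21.1 Mb and held 31.4 regions per Mb (95% interval 29.1 to 33.9). Density was 46.8 per Mb at 3 to 5 kb from the nearest TSS (41.2 to 53.0), 35.9 at 5 to 10 kb (31.6 to 40.6), 25.9 at 10 to 20 kb (21.5 to 30.9) and 12.1 at 20 to 50 kb (8.46 to 16.9). No region lay over 50 kb away in 1.03 Mb of sequence, where the exact Poisson interval reaches up to 3.58 per Mb. These values include the Y, which had 1.79 Mb of distal intergenic sequence, 55.1% of it masked as repeat. The Y held 1 region, or 0.560 per Mb (0.0142 to 3.12). The part of the Y in the fall with distance was not tested. The share of sequence masked as repeat moved with distance, from 20.8% at 3 to 5 kb to 44.4% at 20 to 50 kb and 54.9% beyond. Per Mb of sequence not masked, the densities were 59.1, 46.9, 36.7, 21.9 and 0, so the order was the same. Reads that map to several places had been removed by the authors.

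The median fold enrichment of the regions varied little with distance, but the share of strong regions was lower far away. Only regions that passed the peak caller entered these medians, which bounds them from below. The median was 1.91 and 1.90 in replicates 1 and 2 at 3 to 5 kb, 1.92 and 1.87 at 5 to 10 kb and at 10 to 20 kb, and 1.83 and 1.86 at 20 to 50 kb. A fold enrichment of at least 3 in each replicate was reached by 15.1% of regions at 3 to 5 kb, 11.5% at 5 to 10 kb, 11.4% at 10 to 20 kb and 5.71% at 20 to 50 kb, the last being 2 of 35. The Spearman correlation of distance and fold enrichment was −0.05 in both replicates. At the median, the nearest TSS was 5763.5 bp away. It belonged to a protein-coding gene for 367 regions, to a non-coding RNA gene for 166, to a transposable element for 114, to a tRNA gene for 14 and to a pseudogene for 1. Just outside the 3 kb limit, 148 regions at 3 to 4 kb had medians of 1.96 and 1.95. Just inside it, 163 regions in no gene at 2 to 3 kb had 1.84 and 1.85. The 5 regions nearest to the limit on its far side lay 3004 to 3018 bp from a TSS, and 1 of them was R116, 3004 bp from Sox21a. The 5 nearest below it lay 2965 to 2993 bp away.

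**Figure D4:**
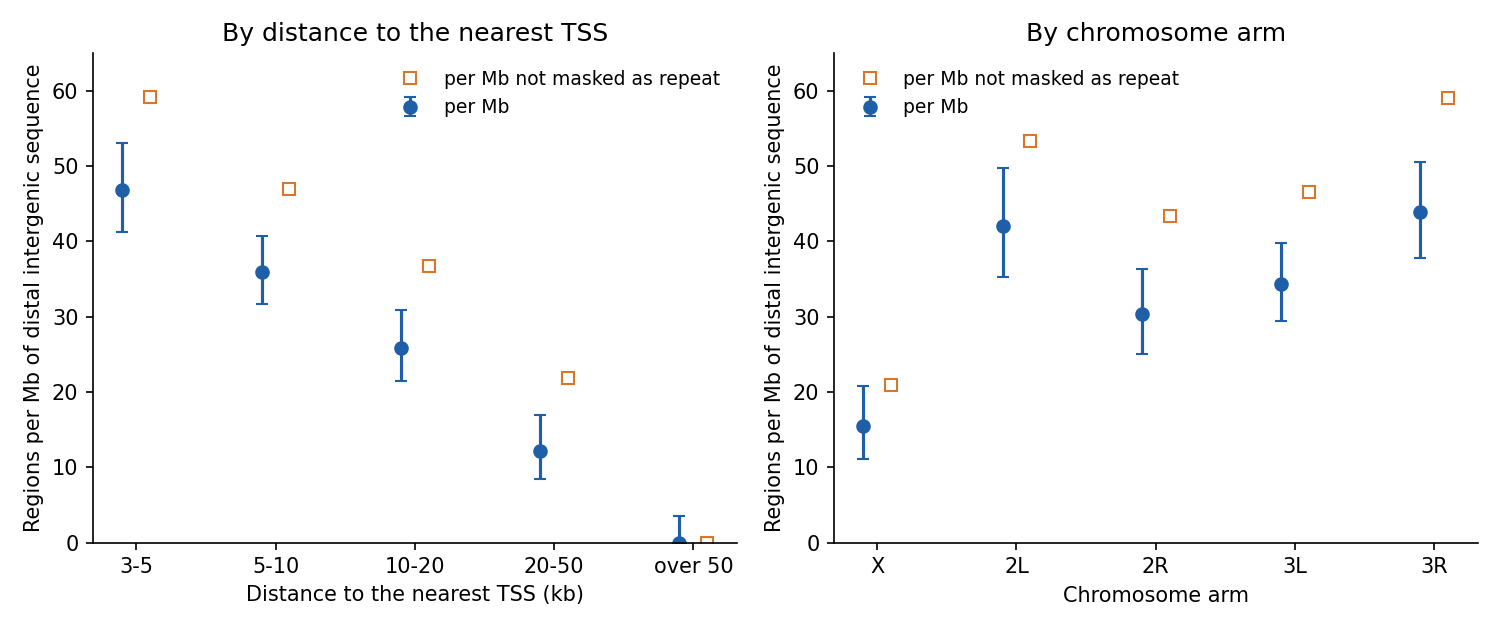
Distal intergenic regions per Mb of sequence that met the position rule (blue, with exact Poisson 95% intervals) and per Mb of such sequence not masked as repeat (orange, no interval), by distance to the nearest TSS (left) and by chromosome arm (right). The density falls from 46.8 to 0 with distance on the left, where the Y is included. Chromosome X is lowest of the arms shown on the right, at 15.4 per Mb.

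Chromosome X was sparse. It held 42 regions in 2.72 Mb of distal intergenic sequence, 15.4 per Mb (11.1 to 20.8), while the large autosome arms held 619 in 16.6 Mb, or 37.4 per Mb. The autosome arms ranged from 30.3 per Mb on 2R to 43.8 on 3R. The ratio of X to autosome arms was 0.413, and for distal intronic regions the same ratio was 0.465. Among regions that passed the peak caller, the median fold enrichment was 1.95 and 1.81 on X, close to the 1.91 and 1.89 on the autosome arms. The flies were males, which have 1 X chromosome. Pileups over TSSs on X were 0.745 and 0.742 times those on the autosome arms, whereas the pileups of distal intergenic regions were 0.954 and 0.901 times. The part of X copy number in the density was not tested. The only region on the Y, R581, was wholly masked as repeat and had 1.38 and 1.60.

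Density varied little with the direction of the flanking genes, and showed no steady rise or fall with the number of their promoters that had a peak. Density was 33.5 per Mb in stretches upstream of both flanking protein-coding genes (28.2 to 39.6), 31.8 upstream of one of them (28.5 to 35.4) and 37.4 downstream of both (32.2 to 43.3). These intervals overlapped. A TSS peak in both replicates was present at 7803 of 13968 protein-coding genes, or 55.9%. Regions were 32.2 per Mb where neither flanking gene had one (28.1 to 36.8), 38.5 where 1 did (34.3 to 43.1) and 27.9 where both did (23.5 to 32.9), and only the last 2 of these intervals did not overlap. Of all regions, 217 (32.8%) thus lay between genes without a TSS peak. Their median fold enrichment was 1.85 and 1.84, against 1.96 and 1.92 for the 143 regions with such a peak at both flanking genes.

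Most gaps between genes held no distal intergenic region. Of 2320 gaps between neighbouring annotated genes that held distal intergenic sequence, 439 (18.9%) had at least 1 region. Gaps with a region had a median length of 13.5 kb, against 8.49 kb for all 2320. In 307 gaps there was 1 region, in 80 there were 2 and in 52 there were 3 or more, which together held 195 regions (29.5%). With a −log10 q of at least 5 in each replicate this share was 16.7%. The gap with most regions by far was the 75.05 kb on 3L between NijA, a gene of a ninjurin membrane protein, and CG43245, with 17. The next was a 77.1 kb gap on 3R with 6 regions. That gap lay within the 91.7 kb between the protein-coding genes Sdr, which encodes a secreted decoy of the insulin receptor, and CG14861. A total of 7 gaps had 5 regions, among them those between the neuronal surface protein genes dpr5 and dpr4, between the GABA receptor gene Rdl and Slc45-1, between Or98b and beat-VI, and between danr, a transcription factor gene, and lobo. Also of 5 were those between Sfp33A1 and CG14931, between CG13171 and CG8854 and between CG9445 and coro, the gene of an actin-binding protein. The gap of R1, between Su(z)2 and CG13323, had 4.

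Within the NijA gap the regions were of very unequal size. R62 (chr3L:10718061-10718790) had the highest mean percentile, at 3.30 and 3.50, followed by R66, at 3.17 and 3.54. A block of 4 regions lay 40.4 to 43.5 kb from the NijA end, made up of R145, R558, R119 and R139. There the pileup reached 802 and 786 in R145, 439 and 483 in R558, 870 and 842 in R119, and 747 and 791 in R139. The local background in this block was 280 to 310, the most in the gap, and the fold enrichment was 1.41 to 2.80 in replicate 1 and 1.63 to 2.84 in replicate 2. The 5 regions nearest to CG43245 had backgrounds at the lowest value of the library and pileups of 120 to 179. Of the 33 regions in high background, 9 lay in this gap.

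The NijA gap also held 4 of the 5 regions farthest from any TSS. R653 (chr3L:10734941-10735181) lay 36744 bp from the nearest TSS, R145 34119 bp, R558 33318 bp and R119 32195 bp. R653 had 1.43 and 1.33. The remaining 1 was R540 (chr3L:15369565-15369717), 32873 bp from Toll-6, which encodes a Toll-family receptor, with 1.56 and 1.53.

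**Figure D5:**
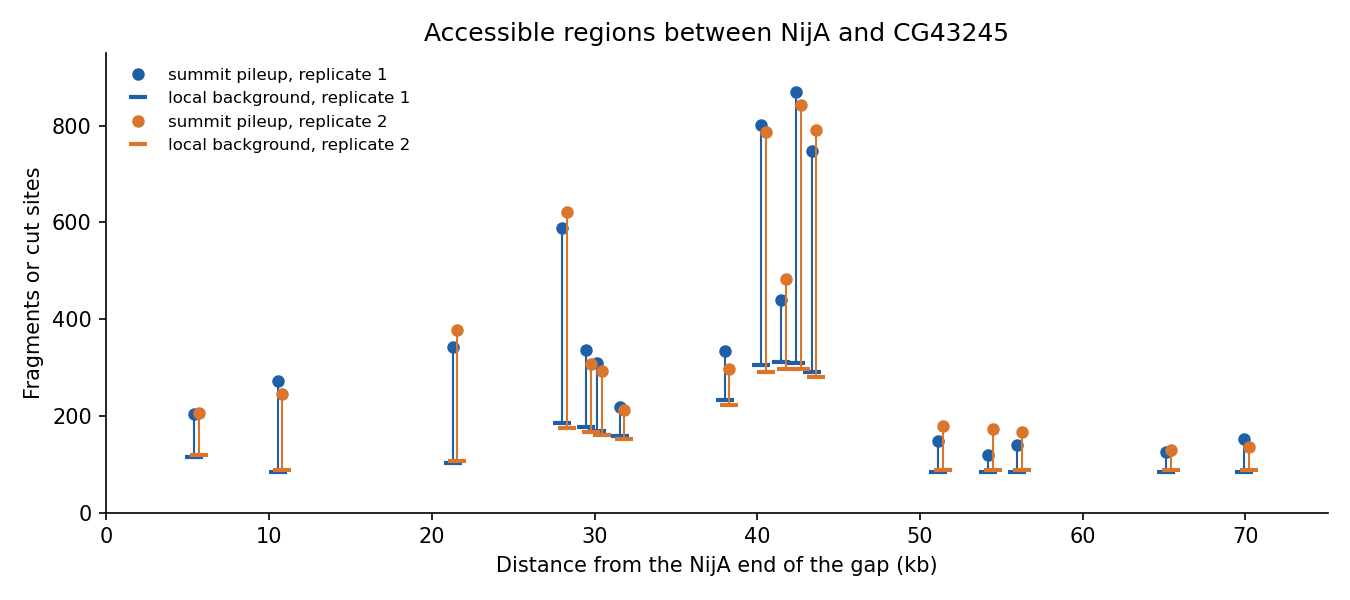
Summit pileup (points) and local background (bars), in fragments or cut sites, of the 17 distal intergenic regions between NijA and CG43245, by distance from the NijA end of the gap in kb, for each replicate. The tallest regions, R145, R119 and R139, stand at 40.4 to 43.5 kb on the highest background.

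Distal intergenic regions lay beside 10 Beat and Side genes and 12 genes of transmitter receptors and channels. A gene was counted when it was the nearest protein-coding gene on either side, and 739 of 2812 protein-coding genes beside distal intergenic sequence had a region, or 26.3%. Among Beat and Side genes, which encode an immunoglobulin-family ligand and receptor system of axons, this was so for 10 of 19, or 52.6%. Among transmitter receptors and channels it was 12 of 25, or 48.0%, and among POU and Sox genes 5 of 10. Among Dpr and DIP genes it was 6 of 22, and among homeobox genes outside the Hox complexes 15 of 52. No region lay beside any of 39 neuropeptide genes, 19 genes of other head cell types or 11 activity-regulated genes, of which 10, 8 and 5 flanked distal intergenic sequence. The amount of such sequence beside a gene differed between the lists. Its median was 12.2 kb for Beat and Side genes, 19.3 kb for POU and Sox genes and 6.97 kb for transmitter receptors and channels, against 4.91 kb over all genes. It was 2.67 kb for neuropeptide genes, 1.33 kb for activity-regulated genes and 0.287 kb for genes of other head cell types. The part of length in these counts was not tested.

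R44 (chr3R:28474971-28475967) lay 157 bp past the annotated gene beat-VI and 8590 bp from CG1894, with 3.69 and 3.79. R40 (chr3R:12836159-12837502), 3058 bp from beat-Va, had 3.59 and 4.03. R23 (chr3R:15053532-15054846) lay 84 bp from dpr9, with 4.59 and 3.93. These were among the strongest of their lists, and the lists as a whole were close to all distal intergenic regions. The 21 regions beside Beat and Side genes had medians of 1.90 and 1.85, and 2 of them reached 3 in each replicate. The 13 beside Dpr and DIP genes had 1.94 and 1.93, and 3 of them did. R36 (chr3R:28989437-28991964), between DIP-gamma and wat, had 3.86 and 3.88 and pileups of 658 and 657. R82 (chr3R:11510165-11511699), in the gap of dpr5 and dpr4, had 3.22 and 3.07.

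The 28 regions beside genes of transmitter receptors and channels had medians of 1.84 and 1.91, close to those of all distal intergenic regions, and 3 of them reached 3 in each replicate. Of these 3, R26 (chr3L:6645291-6646279), 10232 bp from the glutamate receptor gene GluRIA, had 4.56 and 3.84. R59 (chr3R:20727502-20728557), between the octopamine receptor gene Oamb and CG31205 and nearer to CG31205, had 3.61 and 3.39. R55 (chr3R:24498623-24500383), between the nicotinic acetylcholine receptor genes nAChRalpha2 and nAChRbeta2, had 3.59 and 3.48. The 5 regions beside Rdl ran from 1.47 to 2.401 in replicate 1 and from 1.44 to 2.44 in replicate 2. Beside the transcription factor genes, R22 and R32, between the POU gene vvl and Prat2, had 4.41 and 4.14 and 4.14 and 3.81. R24 (chr3R:10664606-10665628), between the homeobox gene hth and CG6465 and nearer to CG6465, had 4.27 and 4.17.

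Regions also lay beside genes of a list that marks the MB, which did not include Oamb. Of the 14 genes in that list, 6 flanked distal intergenic sequence and 3 had a region, namely Pka-C1, which encodes a catalytic subunit of protein kinase A, dnc, the gene of a cAMP phosphodiesterase, and the dopamine receptor gene Dop1R2. The 8 regions beside them had medians of 1.58 and 1.56, and 0 of them reached 3 in each replicate, against 12.5% of all distal intergenic regions. With 8 regions, of which 4 lay beside Pka-C1 and 3 beside Dop1R2, nothing is read from this count. R234 (chrX:3369376-3369808), between dnc and Myc, had 2.23 and 2.11. R237 (chr3R:29625543-29626677), 3627 bp from Dop1R2, had 2.00 and 2.33. The 4 regions beside Pka-C1 ran from 1.40 to 1.89 in replicate 1 and from 1.33 to 1.85 in replicate 2.

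The DNA at the summits was rich in GC and in C-rich words. Within 100 bp of the summit the median GC content was 50.7%, against 41.3% in 96255 windows of the same length from distal intergenic sequence at least 500 bp from any peak, and 46.3% in the 18569 of these windows with no masked base. Distal intronic regions had 49.8% and regions over a TSS 46.3%. The 5 six-base words with the highest ratio of regions to windows, among those in at least 10% of regions, are given here by their shares of regions. The word CGCCCC was present in 16.9% of regions, 5.41% of windows and 14.9% of distal intronic regions. The word ACCCAC was present in 23.0%, 7.43% and 25.5%. The word CCACCC was in 145 regions, the word CCCACC in 139 and the word ACACGC in 118. Distal intergenic and distal intronic regions were thus closer to each other in these words than to windows. Regions over a TSS had 6.18% for CGCCCC, 9.58% for ACCCAC and 12.3% for ACACGC. The words were picked for this ratio, so that it is a description.

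The shares of GTGGGCG, TATCGATA and ATCGAT in distal intergenic regions were closer to those in distal intronic regions than to those over a TSS. That of GAGAGAG was below both. The GTGGGCG site of EGR-family zinc fingers, to which sr belongs, was present in 63 distal intergenic regions (9.52%, interval 7.51 to 11.99), in 9.44% of distal intronic regions, in 3.31% of regions over a TSS and in 2.60% of windows. TATCGATA, the site of the promoter factor DREF, was present in 2 (0.302%), in 0.115% of distal intronic regions and in 5.33% of regions over a TSS. ATCGAT, which lies within it, was present in 2.72%, 3.86% and 13.4%. GAGAGAG was present in 50 regions (7.55%, 5.78 to 9.82), in 9.90% of distal intronic regions, 10.6% of regions over a TSS, 9.87% of all consensus regions and 2.03% of windows. Regions with it had a median fold enrichment of 2.35 and 2.28, against 1.89 and 1.86 for those without, and 32.0% against 10.9% reached 3 in each replicate. Matches on either strand were counted, and a match is not evidence of binding.

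Other motifs were above or below their share in windows, while their shares in all consensus regions were closer. CAGCTG, an E-box, was present in 11.0% of regions, 6.57% of windows, 8.80% of windows without masked bases and 14.0% of all consensus regions. For CAGGTG, another E-box, these shares were 9.21%, 5.93%, 8.43% and 9.18%. TAATTA, a homeodomain site, was present in 47 regions, 13.8% of windows and 8.82% of windows without masked bases. The Mef2 site was present in 4.53% of regions, below the 6.81% of windows but above the 1.89% of windows without masked bases. Its share in all consensus regions was 4.55%. The E-box CACGTG was present in 5.29% of regions, 2.02% of windows and 4.35% of all consensus regions. AAAGGTCA, the site of NR4A nuclear receptors such as Hr38, was present in 3 regions (0.453%), in 0.715% of windows and in 0.367% of all consensus regions.

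The full CRE TGACGTCA was rare. It was present in 4 regions (0.604%, interval 0.235 to 1.54), in 0.513% of all consensus regions and in 0.302% of windows. R4 was the strongest of the 4. R164, between the homeobox gene lbe and Fancm, had 2.53 and 2.51. R191 (chr2R:8773658-8774857), between blo and CG8746, had 2.35 and 2.38. R221, in the gap of Rdl, had 2.17 and 2.27, with pileups of 422 and 428.

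Few regions had a similar stretch elsewhere. A stretch of at least 100 bp with at least 80% identity elsewhere in the genome was found for 13 regions (1.96%). The share was 0.230% for distal intronic regions and 0.903% for distal regions that touched an exon. It was 2.04% near a TSS, 5.13% over a TSS and 3.32% for all consensus regions. Annotated transposable elements counted as genes, so the position rule left out regions that overlap them. The nearest other consensus region was a median of 3684 bp away, against 2604 bp for distal intronic regions, and 20.2% of distal intergenic regions had none within 10 kb, against 8.18%.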

How the data were processed

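ATAC-seq peaks of 2 replicates of naive MB nuclei were analysed. According to the study's methods and the labels, the authors trimmed reads with Trimmomatic 0.39, aligned them to dm6 with Bowtie2 2.4.1, shifted them for Tn5, removed duplicates and reads mapping to several loci, and called peaks in each replicate with MACS2 2.1.2 at a q-value of 0.01. No control library was named. The deposited lists gave for each peak a fold enrichment, which is the ratio of summit pileup to local background, the −log10 of the p-value and q-value, a score made by the authors' caller from the −log10 q that was not used, and the offset of the summit from the peak start. Pileup and background were solved from the deposited fold enrichment and −log10 p. They came within 0.0221 of whole numbers for pileups.

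Genes and TSSs were those of Ensembl release 115, every biotype and transposable elements included, and sequence and soft-masking those of the RefSeq copy of the same assembly, whose chromosome lengths held all peaks. The value of a region in a replicate is that of its strongest peak. Intervals are Wilson for shares and exact Poisson for densities and pileups (95%), for counting error only. Similar stretches were sought with BLAST 2.17.0. Scripts ran in Python, and solving, merging and classing were tested on simulated data.

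The members, gene lists, motifs and tests were chosen with earlier results of these data known. Regions named were the 10 highest, the 5 lowest, the 5 farthest from a TSS, the 3 widest, the 5 that differed most between replicates, those with a CRE and those nearest to the 3 kb limit; also the 10 gaps with most regions, flanking genes and members of the 14 gene lists. Alternatives were other overlaps, thresholds, distances, annotations, windows and single replicates.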

Additional observations from a re-analysis of the deposited data

How the results depend on the processing

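Across 15 results, 135 values were recomputed under alternatives, 76 stayed within their spread or interval, 59 moved and 0 reversed. Most of these results were counts, shares or medians, which have no direction to reverse. The X to autosome ratio and the difference from distal intronic regions were added after the data were seen, as were gaps between protein-coding genes. The number of regions became 411 over 5000 bp from every TSS and 1108 with protein-coding genes only. Their share of consensus regions was 3.51% and 9.47% under these, 7.05% over 2000 bp, 4.99% with a −log10 q of at least 5, 5.21% with a reciprocal overlap of 50% and 6.56% without transposable elements. Regions per Mb were 26.2 over 5000 bp, 23.0 with the stricter q, 25.2 with reciprocal overlap and 28.1 without transposable elements. Under the stricter q, reciprocal overlap and protein-coding genes only, median fold enrichment was 2.15, 2.04 and 1.92 and median pileup 207, 197.75 and 184.75. Median width was 721 and 628 bp under the first 2. The median percentile was 39.2 with protein-coding genes only, 34.6 ranked by −log10 q and 27.9 by pileup. The difference from distal intronic regions was 8.03 with the stricter q, 7.30 over 2000 bp, 8.10 with protein-coding genes only, 8.22 with reciprocal overlap, 6.92 without transposable elements, 6.14 ranked by −log10 q and 1.33 by pileup. The share in gaps with 3 or more regions was 16.7% with the stricter q, 22.7% with reciprocal overlap, 33.1% over 5000 bp, 46.7% with protein-coding genes only, 38.7% for gaps between protein-coding genes and 53.6% for gaps with 2 or more. Similar stretches were found for 0.604% at 200 bp and 90% identity, 4.15% with protein-coding genes only and 3.91% without transposable elements. With 50 bp each side of the summit and with the whole region, GC was 51.5% and 47.5%, GAGAGAG 4.08% and 15.1%, and TAATTA 3.47% and 29.2%. TATCGATA was at 0% with 50 bp each side and over 5000 bp from every TSS. With either replicate alone, which adds peaks the other lacks, median fold enrichment was 1.71 to 1.75, the percentile 39.7 to 41.6, pileup 157 to 162, width 372 to 405 bp, regions per Mb 39.4 to 40.4 and the share in gaps with 3 or more 40.7% to 40.8%. The cause of these shifts was not tested. No paired analysis was possible because there was 1 group. Poisson counting error at the median pileup was 7.59% and 7.43%, which limits how finely regions can be ranked.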
